A study of Mus musculus with 9 samples.

Results

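The transcripts of the matrix metalloproteases (MMPs), of the ADAM and ADAMTS proteases and of their tissue inhibitors (TIMPs) were measured in C2C12 cells, a line of mouse myoblasts. The members were the genes of the deposited expression table whose Ensembl identifier maps to a mouse symbol that begins with Mmp, Timp or Adam followed by a number or by ts, and whose value was above 0 in at least 3 of the 9 libraries. Of 54307 genes in the table, 84 carry such a symbol and 68 were members, and of the 16 others 13 were listed at 0 in every library. The 68 members were 21 MMPs, 22 ADAMs, 16 ADAMTS proteases, 5 ADAMTS-like proteins and 4 TIMPs. The values are FPKM (fragments mapped to a gene, divided by its exon length and by the mapped fragments of the library), a level per unit of transcript length, so that levels of different genes can be set side by side.

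The series compared 3 groups of 3 RNA sequencing libraries, all from C2C12 cells harvested after 48 h. The NC group was the control, for which the labels give no glucose concentration. The H group received 25 mmol/L glucose, and the HL group received 25 mmol/L glucose together with 200 nmol/L liraglutide, an analogue of glucagon-like peptide-1. The 9 libraries include no osmotic control and no group with liraglutide alone, and the labels do not state separate cultures for the replicates. The study's methods say in general that experiments were independently repeated, without saying so of the sequenced libraries, so that the p-values measure the spread between these libraries, which may be in part technical.

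MMPs are secreted or membrane-anchored zinc enzymes that cleave collagens, proteoglycans and other matrix proteins, and most are made as inactive precursors that another protease has to cut. ADAMs are membrane proteins, of which some shed the outer part of growth factors, receptors and adhesion proteins, while ADAMTS proteases are secreted and act on proteoglycans, procollagens and fibrillin microfibrils. TIMPs bind the active site of these enzymes, and in skeletal muscle the whole set is known for its part in myoblast migration, fusion and the remodelling of the matrix after injury.

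A call required an adjusted p below 0.05 and a log2 fold change beyond 1 in either direction. It was made with limma on log2(FPKM + 0.1) in 1 fit of the 9 libraries, over the 13674 genes with at least 1 FPKM in at least 3 libraries. This filter passed 37 of the 68 members, namely 12 MMPs, 9 ADAMs, 9 ADAMTS proteases, 4 ADAMTS-like proteins and 3 TIMPs. The other 31 had a highest value between 0.0158 and 1.1 FPKM over the 9 libraries.

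The myoblast markers were present, with 9 of 10 at 1 FPKM or more in at least 3 libraries and a summed level between 487 and 506 FPKM in NC, between 347 and 490 in H and between 735 and 759 in HL. The depth, estimated from the steps between low values, was between 16400000 and 21700000 fragments per library. The libraries of the H group were less alike than those of the other groups, and for the members more so than for other genes. The median SD of log2 values over the 37 tested members was 0.30 in the H group against 0.07 in the NC group and 0.06 in the HL group, while over all 13674 genes it was 0.17, 0.07 and 0.09. H replicate 2 was the highest H library for 23 of the 37 members (62.2%), compared with 32.7% of all tested genes, so that counts without it are given below.

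The place of the members in the genome is shown first, since 5 of the MMP genes described below come from 1 run. In the RefSeq order of protein-coding genes on chromosome 9, 10 MMP genes follow each other with no other protein-coding gene between them, in the order Mmp13, Mmp12, Mmp1b, Mmp3, Mmp1a, Mmp10, Mmp8, Mmp27, Mmp20 and Mmp7. The first 8 of these were members. In the textbook account, several MMP promoters carry a site for AP-1, the dimer of Fos and Jun proteins, just before the start of transcription. The letters of that site, TGACTCA and on the other strand TGAGTCA, were searched in RefSeq promoter windows of the GRCm38.p6 assembly, which hold 250 bases before and 50 bases after a gene's start. Such a window was available for 42 of the 68 members. The letters stood in windows of 6 of the 8 members of the run (Mmp13, Mmp12, Mmp1b, Mmp3, Mmp1a and Mmp10, with Mmp12 holding them in 1 of its 2 windows), in 2 of the 34 other members with a window (Adam1b and Adam19), and in 5.2% of all 32851 windows. These are matches of letters and no measure of binding.

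The 120 bases before the start are printed for the 5 members of the run that were called in any comparison, with or without the filter on low values, and for Mmp8, their neighbour without a match. The windows are chr9:7272394-7272513 for Mmp13, chr9:7347254-7347373 for Mmp12, chr9:7388027-7388146 on the minus strand for Mmp1b, chr9:7445702-7445821 for Mmp3, chr9:7502222-7502341 for Mmp10 and chr9:7558309-7558428 for Mmp8. All but Mmp1b are on the plus strand, each sequence runs 5′ to 3′ towards the start, and the capitals mark the AP-1 letters.
Mmp13: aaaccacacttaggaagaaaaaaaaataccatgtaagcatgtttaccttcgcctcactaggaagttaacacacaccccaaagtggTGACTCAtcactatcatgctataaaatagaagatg
Mmp12: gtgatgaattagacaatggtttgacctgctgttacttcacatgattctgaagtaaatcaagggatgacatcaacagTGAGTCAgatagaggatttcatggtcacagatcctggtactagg
Mmp1b: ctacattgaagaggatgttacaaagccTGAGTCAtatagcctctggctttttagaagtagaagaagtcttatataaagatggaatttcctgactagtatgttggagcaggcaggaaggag
Mmp3: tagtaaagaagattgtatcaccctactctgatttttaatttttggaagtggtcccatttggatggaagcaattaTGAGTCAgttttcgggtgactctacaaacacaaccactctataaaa
Mmp10: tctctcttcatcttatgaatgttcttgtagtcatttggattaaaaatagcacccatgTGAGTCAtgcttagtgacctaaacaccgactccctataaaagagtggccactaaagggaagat
Mmp8: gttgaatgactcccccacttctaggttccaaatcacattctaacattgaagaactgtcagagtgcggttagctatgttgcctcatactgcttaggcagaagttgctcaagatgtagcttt
The AP-1 letters began 35 bases before the start in Mmp13, 44 in the printed window of Mmp12, 46 in Mmp3, 63 in Mmp10 and 93 in Mmp1b. The other Mmp12 window belongs to a start further upstream (120 bases at chr9:7344277-7344396) and held no AP-1 letters.

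High glucose against the control was the first comparison. In the H group, 5 of the 37 tested members were up-regulated (Mmp12, Timp3, Mmp10, Adamtsl5 and Mmp9), which is 13.5% of them, compared with 10.3% of all tested genes. Another 6 were down-regulated (Adam12, Mmp16, Adam23, Timp1, Adamtsl3 and Adamts5), which is 16.2% of them, compared with 5.75% of all tested genes. Mmp16 and Adam23 reached 1 FPKM in all 3 libraries of NC alone, and Mmp9 in all 3 of H alone. They thus passed the filter on low values through the group where they are high, which limits their weight in these counts. At an adjusted p below 0.05 with no fold threshold, 7 members were higher (18.9%, with 27.1% of all genes) and 17 were lower (45.9%, with 33.0% of all genes). Without H replicate 2 the calls were 4 higher and 7 lower, and without H replicate 1 they were 5 higher and 4 lower. The median log2 fold change was -0.23 over the members and -0.04 over all tested genes. By family this median was 0.36 for the 12 MMPs, of which 7 were above 0, -0.37 for the 9 ADAMs and -0.61 for the 9 ADAMTS proteases, of which 8 each were below 0. Rescaling every library to TPM (the same total of length-scaled values in each) raised the median over all genes to 0.15 and that over the members to -0.04, so that both shifted upwards by about 0.19. After that rescaling 8 MMPs were above 0, and 6 ADAMs and 7 ADAMTS proteases were below 0.

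Liraglutide with high glucose was then compared with high glucose alone. In the HL group 1 member was up-regulated (Adam8, 2.7% of the 37, with 3.55% of all tested genes) and 3 were down-regulated (Adamtsl1, Mmp13 and Mmp3, 8.11%, with 5.83% of all tested genes). With no fold threshold, 11 members were higher (29.7%, with 26.7% of all genes) and 7 were lower (18.9%, with 21.7% of all genes). Without H replicate 2, 2 members were called higher, Adam8 and Adam19, and 2 lower. The median log2 fold change was 0.19 over the members and 0.04 over all tested genes.

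The HL group was also set against the NC group, from which it differs in both glucose and liraglutide. Here 3 members were up-regulated (Mmp12, Adam8 and Mmp10, 8.11%, with 6.30% of all tested genes) and 7 were down-regulated (Adam12, Timp1, Adamtsl1, Adam23, Mmp16, Adamtsl3 and Adamts5, 18.9%, with 2.41% of all tested genes). Adam23 and Mmp16 again count among these after passing the filter through NC, where they are high. With no fold threshold 9 were higher (24.3%, with 21.6% of all genes) and 11 lower (29.7%, with 27.2% of all genes). After rescaling to TPM the calls were 4 higher, with Timp3 added, and 5 lower. The 3 comparisons share libraries, so their lists are not independent of each other.

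**Figure D1:**
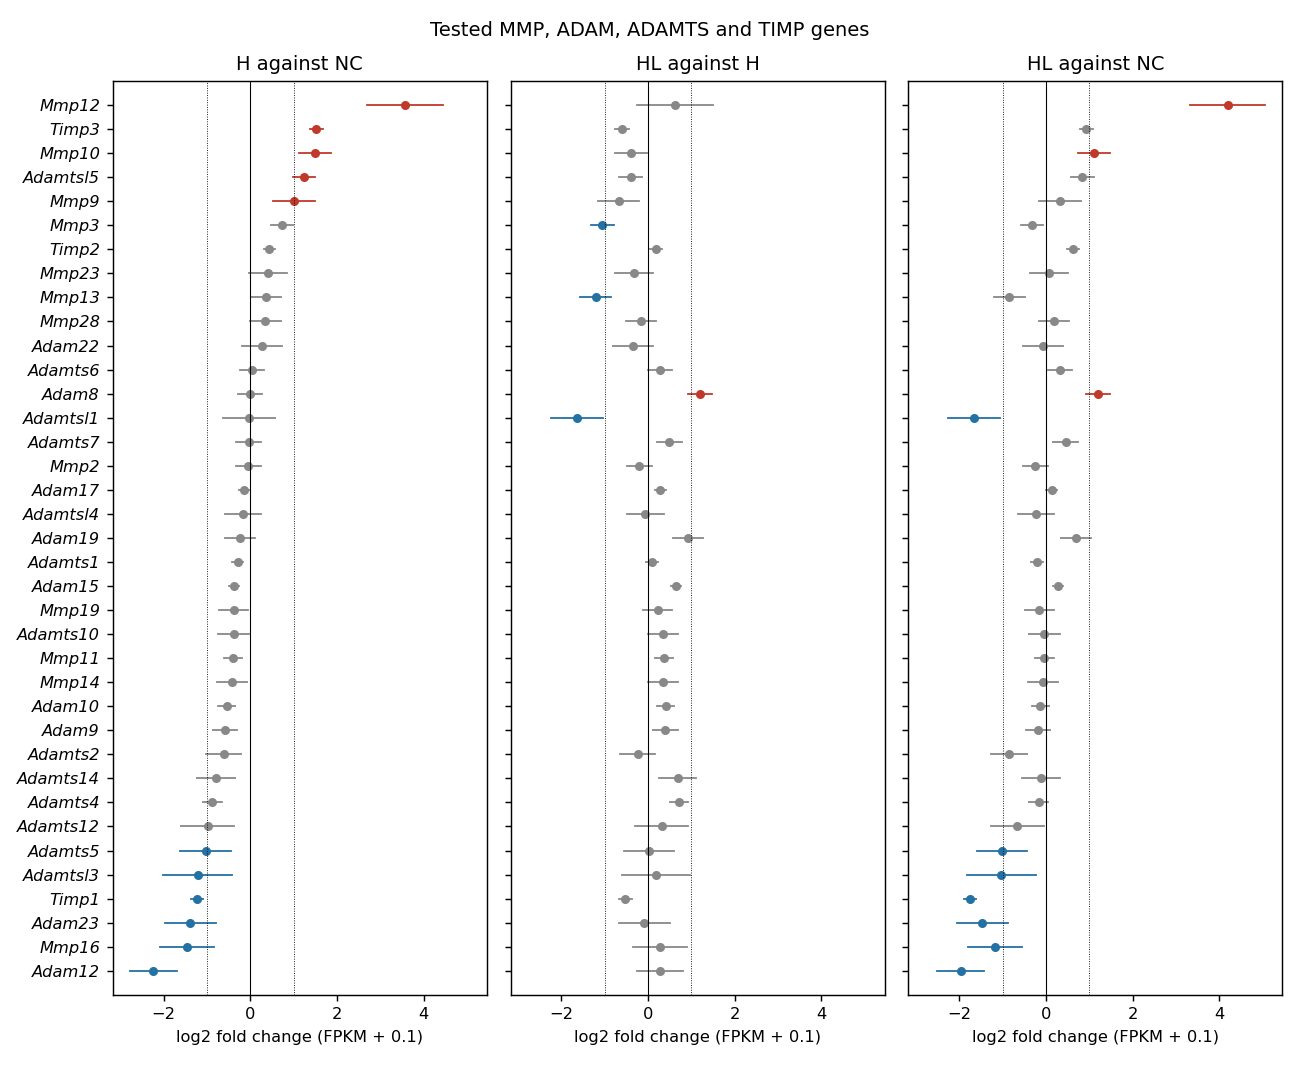
Log2 fold change of FPKM + 0.1 (horizontal axis) of the 37 tested members in the 3 comparisons, ordered by the change in the H group, with bars for the 95% confidence interval of limma. Red points were called higher, blue points lower and grey points were not called, and the dotted lines stand at the fold threshold of 1. Mmp12 has the highest value in H against NC (3.57) and Adam12 the lowest (-2.24), and in HL against H the called members are Adam8, Mmp3, Mmp13 and Adamtsl1.

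The inhibitors Timp1 and Timp2 were the 2 most abundant members by mean level over the 9 libraries. Timp1, a secreted inhibitor of most MMPs, stood at 942, 907 and 924 FPKM in the NC libraries, at 412, 383 and 389 in the H libraries and at 248, 295 and 284 in the HL libraries. The 3 groups did not overlap, with the highest values in NC and the lowest in HL. Timp1 fell by 1.23 on the log2 scale in H against NC (SE 0.07, adjusted p = 6.77e-07) and by 1.75 in HL against NC (adjusted p = 8.20e-07). Between HL and H the difference was -0.52 (SE 0.07, adjusted p = 0.000217), which passed the test and not the fold threshold. In RNA of whole cultures, fewer cells that make a transcript and less of it per cell cannot be told apart.

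Timp2, which inhibits MMPs and also takes part with Mmp14 in the activation of pro-MMP2, moved the other way. Its level was 239.7, 235 and 215 FPKM in NC, 329, 316 and 293 in H, and 359.7, 363 and 343 in HL. The groups did not overlap, and the order of Timp2 was the reverse of that of Timp1. The log2 difference was 0.44 in H against NC (SE 0.06, adjusted p = 0.000184), 0.19 in HL against H (adjusted p = 0.0287) and 0.63 in HL against NC (adjusted p = 5.54e-05), each under the fold threshold. The HL against H difference missed the test in 3 of the 9 fits that each left out 1 library (highest adjusted p = 0.0883). It also missed the test after rescaling to TPM. Over all alternatives it was as low as 0.089, and its adjusted p in limma was at most 0.219.

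Timp3, which binds to the matrix and also inhibits ADAM17 and the ADAMTS aggrecanases, was highest in the H group. The libraries held 24.2, 24.0 and 23.6 FPKM in NC, 76.9, 65.6 and 65.9 in H and 46.7, 46.0 and 44.4 in HL. HL thus lay between the other groups, with no overlap. Timp3 rose by 1.53 in H against NC (SE 0.07, adjusted p = 2.61e-07), and HL was 0.60 below H (log2 difference -0.60, adjusted p = 0.000124) and 0.93 above NC (adjusted p = 1.59e-05). Exons of Timp3 overlap those of Syn3 on the other strand, and Syn3 was at most 0.421 FPKM. Timp4, the fourth inhibitor, did not pass the filter and was at most 0.0759 FPKM, which is about 8.91 fragments in that library.

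The make-up of the inhibitor pool differed between the groups. Timp1 held between 77.8% and 79.5% of the summed TIMP level in the NC libraries, between 50.1% and 52.0% in the H libraries and between 37.9% and 42.3% in the HL libraries. The ratio of Timp1 to Timp2, which needs no scaling between libraries, lay between 3.86 and 4.29 in NC, between 1.21 and 1.33 in H and between 0.69 and 0.829 in HL. Timp2 was above Timp1 in each HL library and below it in each NC and H library. The summed level of all TIMPs lay between 1162 and 1206 FPKM in NC, between 748 and 818 in H and between 654 and 704 in HL, and its ratio to the summed level of all MMP members lay between 3.23 and 3.39, between 1.73 and 2.52, and between 1.98 and 2.17.

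**Figure D2:**
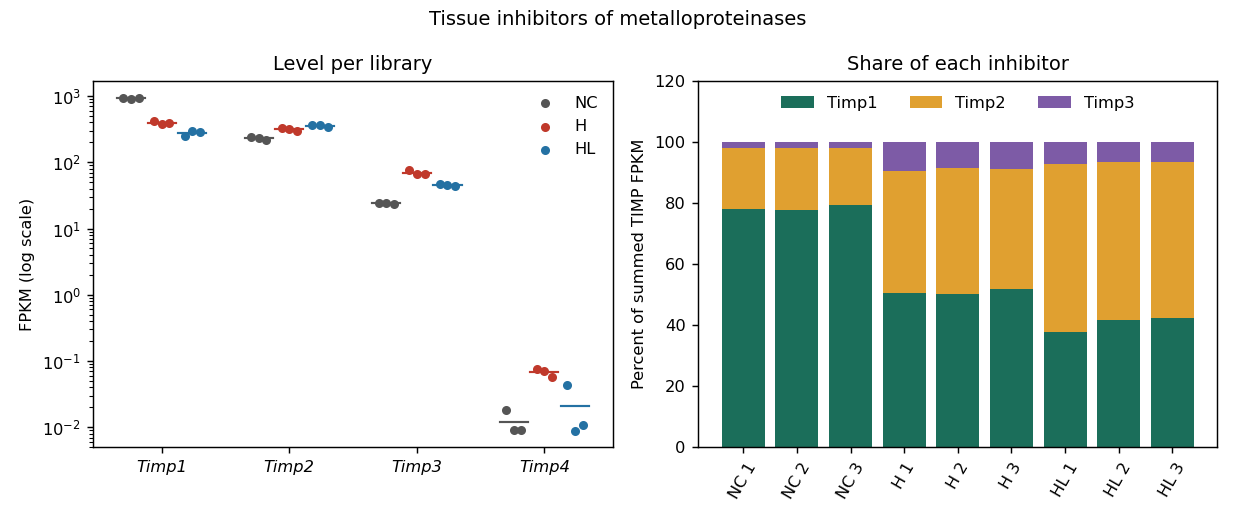
Left, FPKM (log axis) of the 4 TIMPs in each library, with a line at the group mean. Right, the percentage that Timp1, Timp2 and Timp3 each take of the summed TIMP level in each library. Timp1 takes 77.8% to 79.5% in NC and 37.9% to 42.3% in HL.

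Among the MMPs, the 2 most abundant enzymes were not called in any comparison. Mmp2, gelatinase A, stood at 122, 120.2 and 123 FPKM in NC, 107, 151 and 102 in H and 104, 96.7 and 108 in HL. The H libraries lay on both sides of NC, and the log2 difference between H and NC was -0.04, with a 95% confidence interval from -0.33 to 0.24 (adjusted p = 0.783). Without H replicate 2 it was -0.22 and passed the test (adjusted p = 0.00743). HL against NC, at -0.25, had an adjusted p of 0.138 with all libraries and of 0.00313 without H replicate 2. H libraries enter that comparison only through the spread that the 3 groups share in the fit, so the difference itself did not change. Mmp14, the membrane-anchored enzyme that activates pro-MMP2, had 118, 119 and 121 FPKM in NC, 85.4, 119.7 and 69.5 in H and 116, 112 and 112 in HL. Its difference of -0.42 in H against NC (SE 0.16, adjusted p = 0.0419) goes with H replicates 1 and 3 below every NC library and H replicate 2 inside the NC range. It missed the test in 8 of the 9 fits that each left out 1 library (-0.24 without H replicate 3, adjusted p = 0.126) and was -0.63 without H replicate 2 (adjusted p = 0.0002). HL against H gave 0.35 for Mmp14 (adjusted p = 0.0949) and 0.56 without H replicate 2 (adjusted p = 0.000641).

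Mmp9, gelatinase B, was far lower, at 0.801, 0.914 and 0.978 FPKM in NC, 1.80, 2.30 and 1.66 in H and 1.46, 1.09 and 0.949 in HL. Every H library was above every library of the other groups. The change in H against NC was 1.01 (SE 0.21, adjusted p = 0.00274), just past the fold threshold, and it was 0.88 without H replicate 2, 0.94 without NC replicate 1 and 0.62 with a pseudocount of 1. In HL against H the difference was -0.68 (adjusted p = 0.0258), and it missed the test in 3 of the 9 fits that each left out 1 library (highest adjusted p = 0.0869).

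The stromelysins Mmp3 and Mmp10, which cut many matrix proteins and activate other MMPs, lie in the chromosome 9 run with Mmp1a between them. Mmp3 stood at 35.4, 32.3 and 33.9 FPKM in NC, 57.1, 66.8 and 47.2 in H and 25.1, 27.6 and 28.9 in HL. The groups did not overlap, with H highest and HL lowest. Mmp3 was 0.74 higher in H than in NC (SE 0.11, adjusted p = 0.000441) and fell by 1.05 in HL against H (SE 0.11, adjusted p = 0.000101). Without H replicate 2 that second difference was -0.93 and without HL replicate 1 it was -0.996, both short of the fold threshold with an adjusted p of 0.000124 and 0.000727. For HL against NC the Mmp3 difference was -0.32 (adjusted p = 0.045). That one missed the test in 7 of the 9 fits that each left out 1 library (highest adjusted p = 0.141).

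Mmp10 had 5.91, 6.06 and 5.55 FPKM in NC, 12.7, 21.2 and 17.3 in H and 11.8, 14.3 and 12.1 in HL. H and HL overlapped and both lay above NC. The change was 1.5 in H against NC (SE 0.16, adjusted p = 4.72e-05) and 1.11 in HL against NC (SE 0.16, adjusted p = 0.000579), while HL against H gave -0.40 (adjusted p = 0.0726), or -0.59 without H replicate 1 (adjusted p = 0.0041). The third stromelysin, Mmp11, which furin activates inside the cell, was between 20.5 and 31.3 FPKM, with a difference of -0.40 in H against NC (adjusted p = 0.00496) and 0.36 in HL against H (adjusted p = 0.0109).

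Mmp13, collagenase 3, starts the run. It stood at 7.23, 7.12 and 7.41 FPKM in NC, 7.94, 12.4 and 8.38 in H and 3.65, 4.08 and 4.28 in HL. HL lay below both other groups, and H lay above NC, with H replicate 2 highest. Mmp13 fell by 1.21 in HL against H (SE 0.16, adjusted p = 0.000258), was 0.84 lower in HL than in NC (log2 difference -0.84, adjusted p = 0.00192) and differed by 0.37 between H and NC (adjusted p = 0.0673), or by 0.49 without H replicate 1 (adjusted p = 0.0263).

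Mmp12, the metalloelastase known mainly from macrophages, had the largest change from NC of any tested member, in both H and HL. It was at 0.117, 0.0451 and 0.306 FPKM in NC, 3.75, 1.86 and 2.73 in H and 5.11, 4.19 and 3.41 in HL, which is about 4.03 to 27.4 fragments per NC library against 150.5 to 358 per H library and 250.1 to 469 per HL library. The H and HL groups lay above NC without overlap, and they overlapped each other. The log2 change was 3.57 in H against NC (SE 0.39, adjusted p = 4.56e-05) and 4.19 in HL against NC (SE 0.39, adjusted p = 4.79e-05), and with a pseudocount of 1 these were 1.69 and 2.17. HL against H gave 0.63, with a 95% confidence interval from -0.25 to 1.5 (adjusted p = 0.21).

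Of 15 macrophage markers, 2 reached 1 FPKM in at least 3 libraries, Csf1r and Cd68. Csf1r, the receptor for colony stimulating factor 1, ranged from 0.311 to 0.686 FPKM over the NC libraries, from 91.5 to 149 over the H libraries and from 0.249 to 0.282 over the HL libraries. Cd68 was at 4.31 to 5.58, 13.3 to 20.02 and 18.3 to 19.5 FPKM in the same order. The summed level of the list lay between 5.59 and 7.05 FPKM in NC, between 106 and 169.8 in H and between 19.6 and 21.0 in HL. Csf1r made up most of the H sums, and without it the list summed to between 5.23 and 6.74 FPKM in NC, between 14.7 and 21.6 in H and between 19.4 and 20.7 in HL, so that H and HL overlapped. Of the 15 markers, 5 were higher in every H library than in every NC library (Csf1r, Cd68, Itgam, Spi1 and Cx3cr1), and 3 of these also than in every HL library (Csf1r, Itgam and Spi1). Spi1, a transcription factor of myeloid cells, was at 0 in NC and HL and at 0.177 to 0.327 FPKM in H. At 0 in all 9 libraries were C1qa, C1qb, C1qc and Tyrobp, and Ptprc was at most 0.0219 FPKM. The part of these markers in the result was not tested. Mmp12 also shares 157 exonic bases with Mmp1b on the other strand, and the strand setting of the libraries is not given in the sources used here.

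Mmp1b, a gene named after interstitial collagenase, was below the filter. It was listed at 0.0402, 0 and 0 FPKM in NC, 0.336, 0.265 and 0.333 in H and at 0 in all 3 HL libraries. The H values are about 6.95 to 10.5 fragments per library. Its close paralogue Mmp1a, with which reads could be shared, was at most 0.0816 FPKM, and Mmp8 and Mmp27 of the same run were at most 0.659 and 0.13 FPKM. The run therefore held genes of very unlike levels next to each other, with Mmp3 highest.

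**Figure D3:**
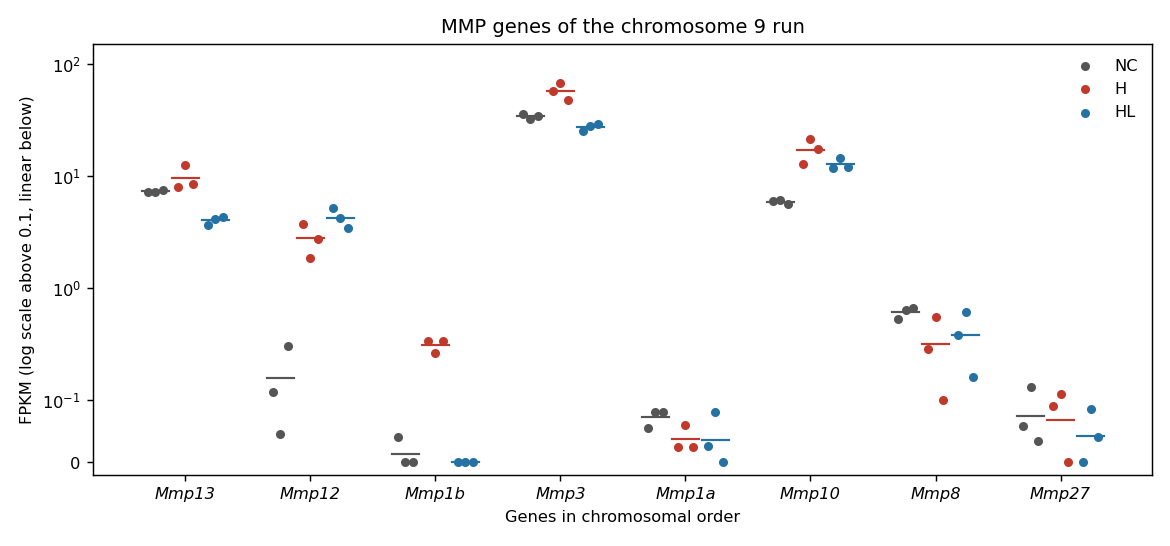
FPKM in each library (vertical axis, log scale above 0.1 and linear below) of the 8 members in the chromosome 9 run, in chromosomal order, with a line at each group mean. Mmp13, Mmp12, Mmp1b, Mmp3 and Mmp10 lie above NC in all 3 H libraries. In the HL libraries Mmp3 and Mmp13 lie below NC, while Mmp10 and Mmp12 stay above it.

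Mmp16, another membrane-anchored MMP, had 1.82, 2.14 and 2.15 FPKM in NC, 0.562, 1.08 and 0.507 in H and 0.981, 0.712 and 0.855 in HL. It fell by 1.45 in H against NC (SE 0.28, adjusted p = 0.00147) and by 1.18 in HL against NC (SE 0.28, adjusted p = 0.00671). The H and HL libraries overlapped, and at a pseudocount of 1 both changes were under the fold threshold, at -0.84 and -0.72. Mmp19, at 14.7 to 24.5 FPKM, and Mmp28, at 4.75 to 8.22 FPKM, were not called in any comparison, and their differences between H and NC were -0.38 (adjusted p = 0.0527) and 0.35 (adjusted p = 0.0788). Leaving out 1 H library put both past the test, Mmp19 at -0.575 without H replicate 2 (adjusted p = 0.00029) and Mmp28 at 0.49 without H replicate 1 (adjusted p = 0.0189). Between HL and H, Mmp19 differed by 0.22 (adjusted p = 0.249), or by 0.42 without H replicate 2 (adjusted p = 0.00235). Both overlap exons of another gene on the other strand that was about as abundant.

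**Figure D4:**
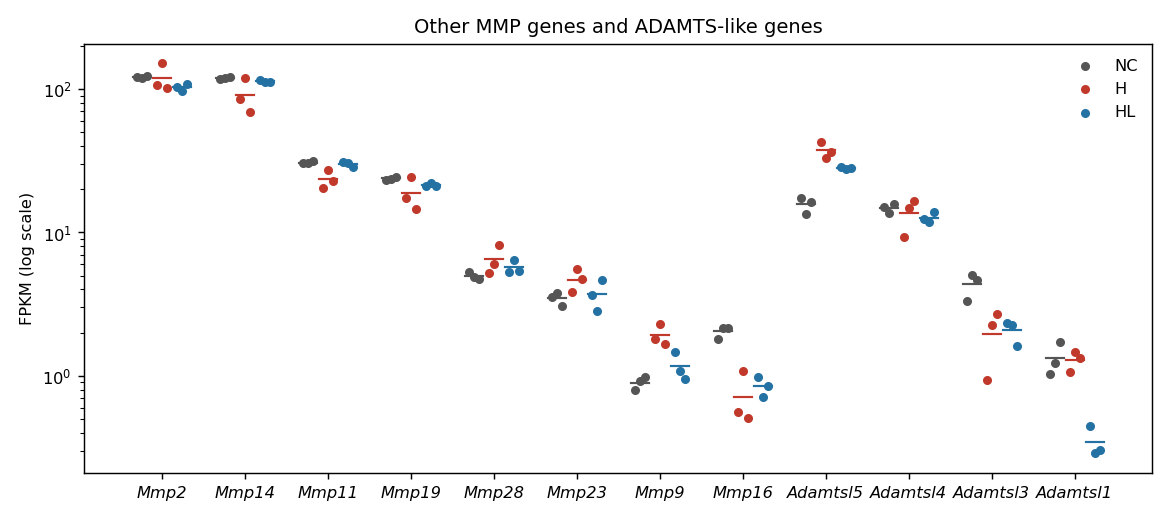
FPKM in each library (log axis) of 8 further MMP members and the 4 tested ADAMTS-like members, with a line at each group mean. H replicate 2 is the highest of the H libraries for Mmp2, Mmp14, Mmp19 and Mmp16. All 3 H libraries of Adamtsl5 lie above its NC libraries, and all 3 HL libraries of Adamtsl1 lie below the other groups.

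Most of the 7 tested ADAM sheddases were lower in H than in NC, and all were higher in HL than in H. In H against NC all 7 were below 0, but Adam8 only at -0.001 (adjusted p = 0.996). Of the 7, 5 were lower at an adjusted p below 0.05, as were 33.0% of all tested genes. Of the 13674 tested genes, 7222 were below 0. All 7 were above 0 in HL against H, 6 of them at an adjusted p below 0.05, where 7325 of all tested genes were above 0 and 26.7% were higher at that p. After rescaling to TPM, 5 were below 0 in H against NC (4 at an adjusted p below 0.05) and 7 above 0 in HL against H (5 at an adjusted p below 0.05). With each library centred on its median, 6 were below 0 in H against NC (4 at an adjusted p below 0.05). In HL against H that centring left 7 above 0 (6 at an adjusted p below 0.05). Both comparisons use the same H libraries. Adam12 was called in the first and Adam8 in the second, and the other differences were under the fold threshold. The summed level of the 9 sheddase members lay between 223 and 224 FPKM in NC, between 147 and 182 in H and between 239 and 241 in HL.

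Adam8, a sheddase known from leukocytes, was the member up-regulated in HL against H. It stood at 9.52, 8.76 and 8.70 FPKM in NC, 9.16, 7.34 and 10.8 in H and 20.6, 20.4 and 21.3 in HL. NC and H overlapped, with a log2 difference of -0.001, and HL lay above both. Adam8 rose by 1.2 in HL against H (SE 0.12, adjusted p = 6.67e-05) and by 1.2 in HL against NC (adjusted p = 7.81e-05), and the change in HL against H stayed between 1.06 and 1.33 under every alternative tried.

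Adam12, or meltrin alpha, is known for its part in the fusion of myoblasts. It had 7.26, 7.42 and 7.69 FPKM in NC, 1.28, 2.35 and 1.11 in H and 1.58, 2.08 and 1.87 in HL. H and HL overlapped, and both were far below NC. Adam12 fell by 2.24 in H against NC (SE 0.24, adjusted p = 4.23e-05) and by 1.96 in HL against NC (SE 0.24, adjusted p = 0.000205), whereas HL against H gave 0.27, with a 95% confidence interval from -0.27 to 0.82 (adjusted p = 0.371), and 0.58 without H replicate 2 (adjusted p = 0.00905). Its relative Adam19, meltrin beta, behaved differently, at 16.5, 16.2 and 16.3 FPKM in NC, 11.8, 18.8 and 12.1 in H and 26.9, 26.6 and 25.5 in HL. Its difference in HL against H was 0.92 (SE 0.15, adjusted p = 0.00113), and 1.14 without H replicate 2, the library in which it was above NC. H against NC gave -0.235 for Adam19 (adjusted p = 0.211) and -0.45 without that library (adjusted p = 0.000133).

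None of the widely expressed sheddases was called. Adam10, which cuts Notch receptors, was at 43.5, 43.9 and 44.9 FPKM in NC, 26.0, 32.9 and 32.5 in H and 39.5, 42.0 and 39.2 in HL. The 3 groups did not overlap, with a difference of -0.54 in H against NC (SE 0.09, adjusted p = 0.000584) and of 0.41 in HL against H (adjusted p = 0.00452). Adam17, which releases tumour necrosis factor and epidermal growth factor ligands, was at 33.1, 31.7 and 31.6 FPKM in NC, 28.0, 30.2 and 29.0 in H and 34.2, 36.6 and 35.1 in HL. Its difference in H against NC was -0.15 (SE 0.05, adjusted p = 0.043), and it missed the test in 8 of the 9 fits that each left out 1 library (highest adjusted p = 0.144) and was 0.05 (adjusted p = 0.507) after rescaling to TPM. In HL against H it was 0.28 (adjusted p = 0.00264), and Adam17 overlaps exons of Iah1, which is at a like level, on the other strand.

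Adam15, a sheddase with an integrin-binding motif, had 45.2, 44.7 and 42.5 FPKM in NC, 32.9, 33.5 and 35.9 in H and 53.6, 53.1 and 54.0 in HL. The difference was -0.37 in H against NC (adjusted p = 0.000247) and 0.65 in HL against H (adjusted p = 2.04e-05). Adam9, the most abundant ADAM, ranged from 37.5 FPKM in H replicate 1 to 72.4 in NC replicate 3, and its differences were -0.59 (adjusted p = 0.00274) in H against NC and 0.40 (adjusted p = 0.0246) in HL against H, the second missing the test in 4 of the 9 fits without 1 library. Of the ADAMs that lack the zinc-binding motif of the protease, Adam23, known from cell adhesion in the nervous system, fell from 2.91, 2.55 and 2.87 FPKM in NC to 0.681, 1.58 and 0.909 in H and was at 0.962, 0.893 and 0.954 in HL. The change was -1.39 in H against NC (SE 0.26, adjusted p = 0.00139) and -1.47 in HL against NC (adjusted p = 0.00154), and -0.90 and -0.96 with a pseudocount of 1.

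**Figure D5:**
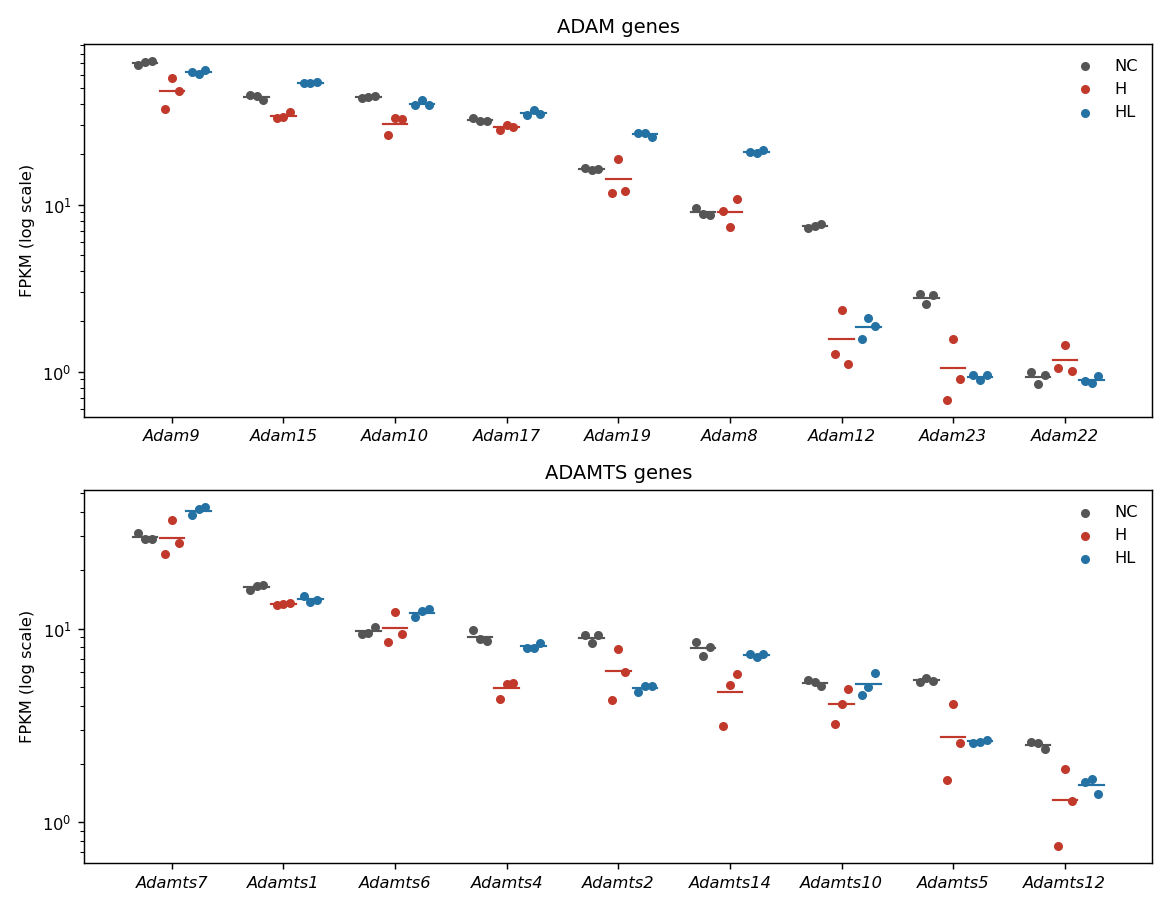
FPKM in each library (log axis) of the 9 tested ADAM members, above, and the 9 tested ADAMTS members, below, with a line at each group mean. The HL libraries of Adam8 and Adam19 lie above the other groups, and the H and HL libraries of Adam12, Adam23 and Adamts5 lie below NC.

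Among the ADAMTS proteases, the 3 tested proteoglycanases were all lower in H than in NC at an adjusted p below 0.05 (33.0% of all tested genes), and 1 of them, Adamts5, was called (5.75% of all tested genes). After rescaling to TPM the 3 were still below 0, with 2 at an adjusted p below 0.05. Adamts5, an aggrecanase that lies next to Adamts1 on chromosome 16, had 5.30, 5.53 and 5.36 FPKM in NC, 1.64, 4.09 and 2.57 in H and 2.58, 2.61 and 2.67 in HL. All H and HL libraries lay below NC, with H spread widely around HL. The change was -1.03 in H against NC (SE 0.26, adjusted p = 0.0068) and -1.02 in HL against NC (adjusted p = 0.00991). The first was -0.72 without H replicate 1, -0.85 after rescaling to TPM and -0.82 with a pseudocount of 1, and the second was also short of the threshold under 4 alternatives.

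Its neighbour Adamts1, also a proteoglycanase, stood at 15.8, 16.6 and 16.7 FPKM in NC, 13.2, 13.4 and 13.5 in H and 14.8, 13.8 and 14.0 in HL, with a difference of -0.29 in H against NC (adjusted p = 0.00232). Adamts4, the third, had 9.86, 8.81 and 8.60 FPKM in NC, 4.34, 5.17 and 5.21 in H and 7.95, 7.93 and 8.38 in HL. The groups did not overlap. Its difference was -0.88 in H against NC (SE 0.10, adjusted p = 4.75e-05) and 0.71 in HL against H (adjusted p = 0.000329).

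The procollagen N-proteinases Adamts2 and Adamts14, which trim fibrillar procollagens, were both lower in H than in NC, Adamts2 not past the test after rescaling to TPM. Adamts2 was at 9.30, 8.42 and 9.27 FPKM in NC, 4.28, 7.85 and 5.95 in H and 4.69, 5.06 and 5.04 in HL, with -0.61 in H against NC (adjusted p = 0.0161) and -0.85 in HL against NC (adjusted p = 0.00413). Adamts14 was at 8.50, 7.25 and 8.04 FPKM in NC, 3.14, 5.10 and 5.80 in H and 7.39, 7.18 and 7.43 in HL, with -0.79 (adjusted p = 0.0059) in H against NC and 0.68 (adjusted p = 0.0164) in HL against H. In the HL group Adamts14 was thus near its NC level, while Adamts2 overlapped H, at -0.24 in HL against H (adjusted p = 0.297). Over the 9 fits that each left out 1 library, this Adamts2 difference lay between -0.46 and -0.03. It passed the test in 1 of them (adjusted p = 0.0156). Adamts7, which cleaves cartilage oligomeric matrix protein, was between 24.2 and 42.4 FPKM, with -0.03 in H against NC (adjusted p = 0.846, and -0.20 without H replicate 2 with an adjusted p of 0.0475) and 0.49 in HL against H (adjusted p = 0.0121). Adamts6 was between 8.52 and 12.6 FPKM and passed the test in no comparison of all libraries, while without H replicate 2 it did in HL against H (0.43, adjusted p = 0.00243) and HL against NC (0.32, adjusted p = 0.0057). The HL against NC difference of Adamts6 was 0.32 with all libraries too, and only the shared spread changed.

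The ADAMTS-like proteins resemble ADAMTS proteases but have no protease domain. Adamtsl5, which binds fibrillin, had 17.3, 13.4 and 16.3 FPKM in NC, 43.0, 32.9 and 36.4 in H and 28.5, 27.6 and 28.1 in HL. HL lay between the other groups without overlap. Adamtsl5 rose by 1.25 in H against NC (SE 0.11, adjusted p = 1.57e-05), and HL against H gave -0.40 (adjusted p = 0.0165).

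Adamtsl1 was near its NC level in H and low in HL. It had 1.03, 1.22 and 1.72 FPKM in NC, 1.06, 1.47 and 1.33 in H and 0.443, 0.287 and 0.304 in HL. All HL libraries were below the rest, and the change was -1.65 in HL against H (SE 0.27, adjusted p = 0.000985) and -1.67 in HL against NC (adjusted p = 0.000885), or -0.76 and -0.78 with a pseudocount of 1. Adamtsl3 had 3.32, 5.05 and 4.68 FPKM in NC, 0.931, 2.26 and 2.69 in H and 2.34, 2.28 and 1.60 in HL. Its changes of -1.21 in H against NC (SE 0.35, adjusted p = 0.0143) and -1.03 in HL against NC (SE 0.35, adjusted p = 0.0358) were lost under 3 and 8 alternatives, with -0.77 in H against NC without H replicate 1 and an adjusted p of 0.107 in HL against NC without NC replicate 2. Adamtsl4, another fibrillin-binding member, was between 9.27 and 16.5 FPKM and passed the test in no comparison of all libraries, while without H replicate 1 it was at -0.31 in HL against H (adjusted p = 0.0277) and at -0.23 in HL against NC (adjusted p = 0.0458). The HL against NC difference of Adamtsl4 was -0.23 with all libraries too, and only the shared spread changed.

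Of the 31 members below the filter, 18 stayed under 0.25 FPKM in every library. The 31 include all 10 ADAMs known mainly from testis and sperm, of which Adam1a had the highest value (1.1 FPKM). When the 25810 genes above 0 in at least 3 libraries were fitted with no other filter, 2 of the 31 were called higher in H than in NC, Mmp24 and Mmp1b (11.0% of all genes), and 4 were called lower, Adamts9, Adam30, Adamts3 and Adam4 (4.25% of all genes). In HL against H none of them was called higher by limma (2.39% of all genes, 1 was higher at an unadjusted p below 0.05) and Mmp1b was called lower (6.64% of all genes). In HL against NC none was called higher by limma (5.22% of all genes, 3 higher at an unadjusted p below 0.05) and Adamts9, Adam30 and Adam4 were called lower (2.63% of all genes). None of these 6 genes was above 0.549 FPKM in any library, and exons of Mmp24 overlap BC029722, which was at 19.9 to 25.4 FPKM, on the other strand.

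The proteins that activate, assist or are cut by the members were described by 6 lists, whose counts stand beside the share of all tested genes called higher and lower, 10.3% and 5.75% in H against NC, 3.55% and 5.83% in HL against H and 6.30% and 2.41% in HL against NC. Of 14 tested convertases, plasminogen system genes and inhibitors of pericellular proteolysis, 2 (14.3%) were called, both higher, in H against NC. Plat, tissue plasminogen activator, rose from 31.0 ± 0.317 to 71.3 ± 5.27 FPKM (SD, n = 3 libraries) and Prss35, a secreted serine protease-like protein, from 0.173 ± 0.0329 to 68.3 ± 15.4. In HL against H only Prss35 of this list was called, lower, at 0.604 ± 0.111 FPKM in HL. The study had already reported Prss35 among its top changed genes in both comparisons with H. The lists were chosen with earlier results known, so the part of Prss35 in these shares is no independent result. In HL against NC, Plau, urokinase, was called higher (58.8 ± 1.64 against 134.9 ± 3.59 FPKM), as was Prss35, and Serpinb2, an inhibitor of plasminogen activators, was called lower (27.6 ± 0.587 against 8.51 ± 0.388 FPKM). None of 10 tested partners of ADAM10 and ADAM17, such as tetraspanins and rhomboid-like proteins, was called by limma in any comparison, with every difference under the fold threshold. At an adjusted p below 0.05, 6 of them were higher and 1 lower in H against NC, 3 higher and 1 lower in HL against H, and 6 higher and 1 lower in HL against NC, with 9, 4 and 7 at an unadjusted p below 0.05. Their log2 differences stayed between -0.43 and 0.85.

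Of 25 tested membrane substrates shed by ADAMs, 3 (12.0%) were called higher in H than in NC, 1 higher (4.0%) and 4 lower (16%) in HL than in H, and none in HL against NC by limma, where 12 passed an adjusted and 16 an unadjusted p below 0.05. Ereg, a growth factor ligand, was at 26.9 ± 1.03 FPKM in NC, 84.7 ± 11.6 in H and 18.9 ± 0.569 in HL, the Notch ligand Dll1 at 0.808 ± 0.0727, 3.10 ± 0.157 and 1.38 ± 0.274, and the chemokine Cxcl16 at 1.55 ± 0.335, 4.26 ± 0.106 and 1.56 ± 0.286. These 3 genes were called in both comparisons with the H group. Of 22 tested matrix substrates, 1 (4.5%) was called higher and 5 (22.7%) lower in H against NC, 3 (13.6%) higher in HL against H, and 2 (9.1%) higher and 1 (4.5%) lower in HL against NC. Col1a1, a chain of type I collagen, was at 67.2 ± 0.895 FPKM in NC, 7.82 ± 2.11 in H and 10.2 ± 0.0253 in HL, and Fn1, fibronectin, at 789.8 ± 8.07, 810.1 ± 126 and 1912 ± 16.1.

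Of 13 tested AP-1 and ETS transcription factors, 2 (15.4%) were called higher in H than in NC, 1 (7.7%) lower in HL than in H and 2 (15.4%) higher in HL than in NC. Fos was at 8.63 ± 0.691 FPKM in NC, 99.0 ± 29.0 in H and 93.9 ± 7.32 in HL, and Fosb at 3.33 ± 0.253, 73.5 ± 18.7 and 21.1 ± 0.99 in the same order. Of the 5 members of the chromosome 9 run with AP-1 letters and a printed window, Mmp10 and Mmp12 were above NC in all H and HL libraries, whereas Mmp3 and Mmp13 were below NC in all HL libraries. Apart from Mmp8, windows were printed for called members only. Mmp1a also had the letters and was not called, with means of 0.0725 FPKM in NC, 0.0367 in H and 0.0355 in HL. For Mmp12 the letters stood in 1 of its 2 windows, not in the upstream one. The part of these factors in the levels of the members was not tested. Of 8 tested other metzincins and matrix metalloendopeptidases, Phex was the gene called, higher in H (12.5% of the list) and in HL (12.5%) than in NC, at 1.05 ± 0.0535 FPKM in NC, 4.76 ± 0.31 in H and 2.92 ± 0.189 in HL.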

How the data were processed

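Per the labels and the methods, mRNA of C2C12 cells was sequenced on an Illumina HiSeq, and the authors deposited FPKM values per gene, made with HISAT2 2.1.0 and StringTie 1.3.3b according to the submitters' processing notes, which name the mouse build mm39 (the methods name a human genome), so that the build was not settled and no coordinates on it are given. Those of the promoter windows are RefSeq's. The deposited values carry the name of another quantifier, salmon, so the quantifier was not settled either. The strand setting is not given in the sources used here. The deposited values were used as they stand, in 9 libraries of 3 groups. Identifiers were matched without version to GENCODE M21 symbols, and 51482 of 54307 genes had one. Members, gene lists and tests were chosen with earlier results of these data known.

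Genes with at least 1 FPKM in at least 3 libraries were tested with limma 3.58.1 (trend and robust, statmod 1.5.0, R 4.3.3) on log2(FPKM + 0.1), 1 fit over all 9 libraries with 6 residual degrees of freedom, with Benjamini-Hochberg adjustment over all 13674 genes. A fold change on this scale understates that of low genes. The fit was run on simulated data with the same spread in every group. That check does not cover the wider spread of the H libraries. The named members were those called in any comparison, those with a mean of at least 5 FPKM, the 4 TIMPs and Mmp2, Mmp9, Mmp14, Adam10 and Adam17. From the other lists up to 3 called genes per comparison were named. Mmp1a, Mmp1b, Mmp8, Mmp24, Mmp27, Adam1a, Adam4, Adam30, Adamts3 and Adamts9 were named beside these after their values were seen. Depth was estimated from the steps of low FPKM values of single-transcript genes of at least 4000 bases, of which 98.1% to 100% were within 0.15 of whole fragments. It is an estimate, so no count test was run. Promoter windows are from RefSeq (GRCm38.p6). Python 3.11.15, pandas 2.3.3 and matplotlib 3.10.9 were used. Marker lists for myoblasts, macrophages, endothelial cells, fibroblasts, adipocytes and neutrophils had 9 of 10, 2 of 15, 1 of 7, 2 of 7, 1 of 5 and 1 of 6 genes at 1 FPKM or more in at least 3 libraries. Alternatives were 2 other pseudocounts, other filters, rescaling, centring, fits of 2 groups, other variance models, a replicate block and leaving out each library.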

Additional observations from a re-analysis of the deposited data

How the results depend on the processing

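Of 1857 single-gene values recomputed under an alternative (99 differences), 1795 kept their sign and their call or lack of one, 29 lost a call, 2 gained one and 31, of 15 differences, changed sign. A value that keeps its call or lack of one can still cross an adjusted p of 0.05, as 117 values of 35 differences did, 66 of them with 1 library left out. Of the 31, Adam17 in H against NC (0.047 after rescaling to TPM) had an adjusted p below 0.05, and the 30 others had at least 0.163 before and after. These were, in H against NC, Adam8 (0.001 with a pseudocount of 1, 0.191 rescaled, 0.019 centred, -0.13 to 0.142 without 1 library), Adamts6 (-0.113 to 0.144 without 1 library), Adamts7 (0.161 rescaled, -0.196 to 0.1 without 1 library), Adamtsl1 (0.161 rescaled, -0.174 to 0.168 without 1 library), Adamtsl4 (0.019 rescaled, -0.334 to 0.078 without 1 library) and Mmp2 (0.149 rescaled, -0.22 to 0.06 without 1 library). Between HL and H they were Adam23 (-0.329 to 0.223 without 1 library), Adamts1 (-0.012 rescaled), Adamts5 (-0.006 with a pseudocount of 1, -0.078 rescaled, -0.298 to 0.334 without 1 library), Adamtsl3 (-0.26 to 0.46 without 1 library), Adamtsl4 (-0.311 to 0.101 without 1 library) and Mmp28 (-0.305 to 0.014 without 1 library), and in HL against NC Mmp11 (0.062 rescaled, -0.06 to 0.002 without 1 library) and Mmp14 (0.024 rescaled). The gains were Adam19 in HL against H without H replicate 2 and Timp3 in HL against NC after rescaling (1.03). In H against NC the 5 members called higher became 3 with a filter on a mean of at least 5 FPKM, and the 6 called lower became 2 with a pseudocount of 1, 10 without a filter, 1 with the mean filter and 17 by adjusted p alone. In HL against H the 1 higher became 11 and the 3 lower became 7 by adjusted p alone. In HL against NC the 3 higher became 9 by adjusted p alone, and the 7 lower became 2 with a pseudocount of 1, 1 with the mean filter and 11 by adjusted p alone. The mean filter leaves fewer members to test. Leaving out 1 library at a time gave 4 to 5 higher and 4 to 7 lower in H against NC, 1 to 2 and 2 to 3 in HL against H, and 3 and 5 to 7 in HL against NC. Same-numbered libraries of different groups shared only a number (correlations of their deviations from the group means between -0.037 and 0.091), and a replicate block gave the same counts, 5 and 6, 1 and 3, and 3 and 7. Estimated depth limits members below about 0.1 FPKM to a few fragments, and the uneven H libraries limit the comparisons with that group. Through the spread that all groups share in the fit, the H libraries also enter the p-values of HL against NC.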
